A study of Rattus norvegicus with 30 samples.

Results

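The 9 rat genes of conjugation, the step in which hepatocytes attach a polar or small chemical group to drugs, hormones and bile acids, that were followed here are Sult1a1, Sult1b1, Sult2a6, Papss2, Ugt2b1, Ugdh, Ugp2, Tpmt and Nnmt. They were taken by name as enzymes of sulfation, glucuronidation and methyl conjugation. No difference between groups entered the rule for their probe sets, but the members were chosen with earlier results of these data known. Each gene took the probe set annotated to it alone, and where there were several, the probe set with the highest mean over all 30 arrays. All 9 of 9 genes were on the array and were among the 10222 genes tested. Papss2 had 2 such probe sets and the other 8 genes had 1 each.

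The compound, methapyrilene, is a former sleep aid of the antihistamine class and a liver carcinogen of the rat. The study measured the effect of the compound on gene expression in primary hepatocytes of male Sprague Dawley rats, bought frozen, plated on collagen under a Matrigel overlay and dosed on day 3. The 6 groups were vehicle (DMSO), 3 uM and 100 uM methapyrilene at 24 h and the same at 48 h, with 5 arrays each, so n = 5 in every group. All groups received DMSO; the labels give 1%, but the protocol uses this figure for the concentrated dosing solutions, so its share in the medium is uncertain. The 5 arrays of a group came from separate wells called independent cultures, with no animals named, and p-values measure the spread between these wells. In such bulk cultures, fewer cells of a type and less RNA per cell cannot be told apart.

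Sulfotransferases (Sult genes) move a sulfate group from the donor PAPS to phenols, steroids and bile acids, and the Papss enzymes make PAPS from ATP and inorganic sulfate. UDP-glucuronosyltransferases (Ugt genes) attach glucuronic acid from UDP-glucuronic acid, which Ugp2 and Ugdh supply in sequence by making UDP-glucose and oxidising it. Methyltransferases take the methyl group of S-adenosylmethionine: Tpmt acts on thiopurine drugs and Nnmt on nicotinamide. The liver is the main organ for these reactions, which mostly make their substrates easier to excrete.

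Genes with different calls were picked as examples, with no ranking. Of these, Sult2a6 was below the array median at 100 uM alone, and Sult1b1 was called lower at both times, as were most members. Ugt2b1 was called lower at 48 h alone, and Ugdh had the single increase. The upstream sequences of all these examples are given first. They are RefSeq sequences of build GRCr8, read 5′ to 3′ on the gene's strand, and cover the 250 bases before the start used by the table of upstream sequences (for Ugdh the first 212 of them, since the last 38 lie within the gene's annotated span). Sult2a6 lies at chr1:84097809-84098058 (minus strand), Sult1b1 at chr14:20771667-20771916, Ugt2b1 at chr14:21378632-21378881 and Ugdh at chr14:43202268-43202479 (plus strand). Capitals mark the motif matches described next.
Sult2a6: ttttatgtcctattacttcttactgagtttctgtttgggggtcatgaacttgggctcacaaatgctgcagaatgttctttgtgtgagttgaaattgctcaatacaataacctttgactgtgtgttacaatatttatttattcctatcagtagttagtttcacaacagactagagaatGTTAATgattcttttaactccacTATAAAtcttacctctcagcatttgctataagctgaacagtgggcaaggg
Sult1b1: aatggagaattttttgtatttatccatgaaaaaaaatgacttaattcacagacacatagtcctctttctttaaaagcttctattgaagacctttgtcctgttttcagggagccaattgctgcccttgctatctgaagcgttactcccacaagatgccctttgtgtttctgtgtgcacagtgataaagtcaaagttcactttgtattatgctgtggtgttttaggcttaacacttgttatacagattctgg
Ugt2b1: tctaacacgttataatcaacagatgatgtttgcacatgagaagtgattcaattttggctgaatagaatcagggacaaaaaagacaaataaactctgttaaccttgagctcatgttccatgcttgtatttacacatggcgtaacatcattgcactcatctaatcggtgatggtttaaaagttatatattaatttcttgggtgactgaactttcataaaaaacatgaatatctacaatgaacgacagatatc
Ugdh: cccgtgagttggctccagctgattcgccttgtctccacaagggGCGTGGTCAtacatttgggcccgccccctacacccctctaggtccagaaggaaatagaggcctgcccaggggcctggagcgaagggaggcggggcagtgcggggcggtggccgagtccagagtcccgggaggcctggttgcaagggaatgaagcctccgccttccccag

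A script searched both strands of the 250 bases before that start for the TATA box (TATAAA), the nuclear receptor half-site AGGTCA, the HNF1 half-site GTTAAT, the core of the dioxin response element (GCGTG) and the core of the antioxidant response element (TGACNNNGC). Upstream sequences were matched for 8 of the 9 genes, Nnmt being the exception. The windows of Sult1a1, Sult1b1, Sult2a6 and Ugt2b1 end where the annotated gene begins, but 38 of the 250 bases of Ugdh, 116 of Papss2, 118 of Tpmt and all 250 of Ugp2 lie within the span of the gene, which has an earlier annotated start. Sult2a6 held the TATA box 50 bases and the HNF1 half-site 73 bases before the start; 12.9% and 6.45% of all 33469 upstream windows of the same length held these letters. The TATA match of Papss2, on the reverse strand, lies within the gene span. The dioxin response core was found in the windows of Ugdh, Ugp2 and Tpmt, against 25.9% of all windows; the match of Ugp2 and those of Tpmt lie within the gene span, 1 of the 3 in Tpmt partly. The antioxidant response core was found in Ugdh and Tpmt, outside their gene spans, against 10.1% of all windows; in Ugdh it overlaps the dioxin response core, 207 bases before the start. The half-site AGGTCA was in 0 of the 8 windows and in 14.1% of all windows, and Sult1a1, Sult1b1 and Ugt2b1 held none of the letters searched. The windows of the transferases Sult2a6, Ugt2b1 and Sult1b1 were poor in G and C (35.6%, 33.2% and 37.2%), and those of Ugdh, Ugp2, Tpmt and Papss2 were rich (66.0%, 67.2%, 67.6% and 70.8%), with Sult1a1 at the median of all windows (51.2%). For the latter 4 this includes bases within the gene span. These matches describe letters in a window and say nothing about binding.

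The values are MAS5 signals, a probe set's brightness on a linear scale set by each array's overall brightness, and levels of different genes are not compared. Array medians lay between 362 and 471. The first principal component, with 25.3% of the variance, put all arrays of 100 uM (19.7 to 25.9) apart from the others (-16.6 to -6.32). The second, with 8.99%, put replicates 1, 2 and 3 of 3 uM at 24 h (20.4 or more) apart from the remaining arrays (-12.5 to 7.83). In these 3 arrays the beta-actin control probe sets at the 3′ end over those at the 5′ end, a ratio that is higher in shortened RNA, stood at 3.93 to 5.30, against 2.34 to 3.43 elsewhere. All 9 measured hepatocyte markers, Alb and Cps1 among them, were above the array median, and their summed signal was 456800 to 713400 over the arrays. Of the other cell types' markers, 6 of 9 for Kupffer cells, 5 of 11 for stellate cells, 1 of 6 for endothelial cells and 2 of 5 for cholangiocytes passed the filter on dim probe sets. Ptprc and Adgre1 (leukocytes), Lrat and Dcn (stellate cells), Pecam1 (endothelium) and Krt7 (bile duct) were below the array median on every array. Other markers on the same lists were bright: group means ran from 8867 to 12589 for Epcam (bile duct) and from 6407 to 8263 for Lyz2 (leukocytes).

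At 100 uM most of the conjugation genes were lower than in DMSO at both times. Since the 9 genes were chosen with earlier results of these data known, the counts describe them and are no test of the set. A gene was called where limma's adjusted p (Benjamini-Hochberg over all genes tested) was under 0.05. At 24 h 7 of 9 genes fell and 1, Ugdh, rose, while 15.8% of all genes were called lower and 19.9% higher. At 48 h 8 of 9 fell and 0 rose, while 14.5% of all genes were called lower and 18.9% higher. In 6 genes at 24 h and 7 genes at 48 h all 5 arrays of 100 uM lay below all 5 of DMSO, as they did in 11.9% and 12.1% of all genes. The median log2 fold change of the 9 genes was -0.33 at 24 h and -0.41 at 48 h, and that of all genes 0.04 and 0.05. Sult2a6 passed the filter on dim probe sets only through DMSO and 3 uM and so had to differ at 100 uM. Without it 6 of 8 genes fell at 24 h and 7 of 8 at 48 h, 5 and 6 of them without overlap, with medians of -0.32 and -0.38. At 3 uM 0 of 9 were called at either time.

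**Figure D1:**
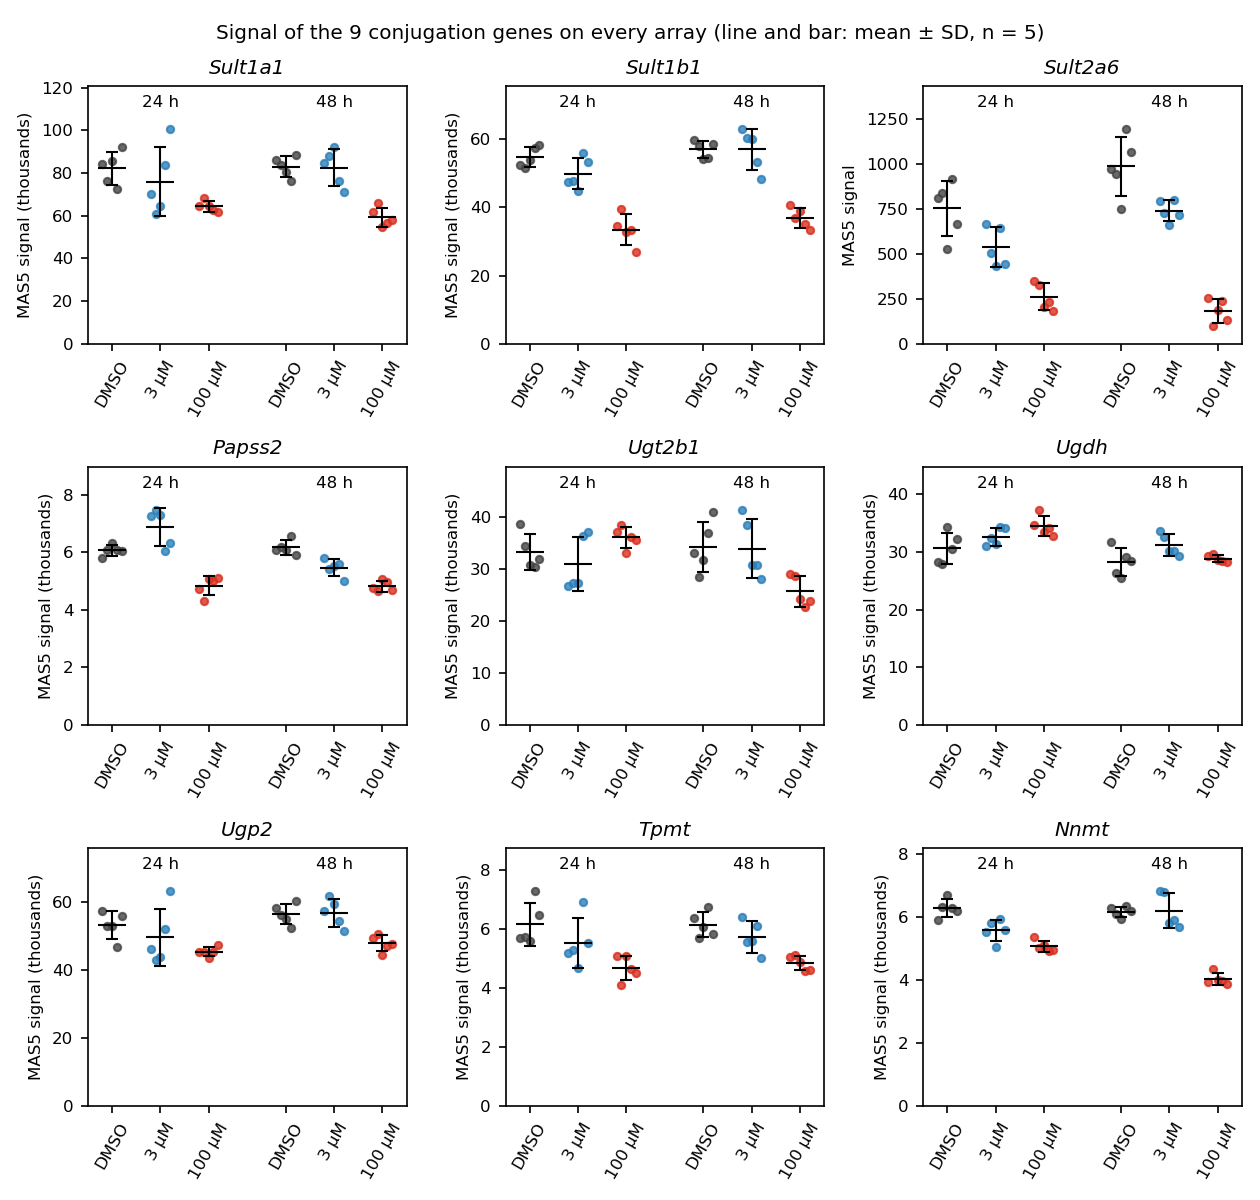
MAS5 signal (vertical axis, linear, from 0, with the scale on each panel) of the 9 genes on each of the 30 arrays (points), by dose and time, with mean ± SD of the 5 arrays of a group. All 5 arrays of 100 uM lie below all 5 of DMSO for 6 genes at 24 h and 7 at 48 h; the 10 points of Sult2a6 at 100 uM are below their array medians.

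Sult2a6, a sulfotransferase of the hydroxysteroid and bile acid family, was called lower at both times, from a dim probe set. Its signal was below the array median on all 10 arrays of 100 uM and above it on the other 20. No detection calls were used, so it is not known whether the dosed signals are above background, and they are read as bounds. At 24 h the signal was 812, 840, 530, 918 and 666 in DMSO and 351, 330, 205, 235 and 184 at 100 uM. At 48 h it was 975, 947, 751, 1196 and 1068 in DMSO and 252, 102, 189, 238 and 131 at 100 uM. Every dosed well was below every control at both times. As the gene passed the filter only through DMSO and 3 uM, this is no independent support for a difference. With each dosed array set to its own median (385 to 433), a floor chosen after the values were seen, DMSO was at least 1.82-fold higher at 24 h and at least 2.35-fold higher at 48 h. The fit on the signals as deposited gave log2 fold changes of -1.55 ± 0.22 and -2.50 ± 0.22. Their size and order against other genes depend on signals below that floor, and no p-value is given because of the filter.

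Sult1b1, which sulfates small phenols and thyroid hormones, fell at both times, with estimates of similar size. Its signal at 24 h was 52487, 51640, 53898, 57294 and 58186 in DMSO and 34445, 39623, 32899, 33437 and 26839 at 100 uM. The groups stood well apart, at 54701 ± 2906 and 33449 ± 4558, a log2 fold change of -0.72 ± 0.0795 (limma adjusted p = 6.92e-09). The means of 48 h were 57018 ± 2570 and 37002 ± 2921, with a log2 fold change of -0.63 ± 0.0795 (limma adjusted p = 1.13e-07), and again no array overlapped.

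Sult1a1, the main sulfotransferase for simple phenols, fell less. Its signal at 24 h was 84213, 76262, 85511, 72642 and 92216 in DMSO and 64414, 68496, 64697, 62499 and 61866 at 100 uM, so the highest dosed well was under the lowest control. The log2 fold change was -0.35 ± 0.093 (limma adjusted p = 0.00333). At 48 h the means were 83070 ± 4791 and 59383 ± 4427, again without overlap, with a log2 fold change of -0.49 ± 0.093 (limma adjusted p = 8.95e-05). Whether the probe sets of the Sult genes also read related transcripts was not tested.

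Papss2, the PAPS synthase that prevails in liver, fell at both times, with log2 fold changes of -0.33 ± 0.060 at 24 h and -0.35 ± 0.060 at 48 h (limma adjusted p = 4.26e-05 and 1.46e-05). At 24 h the signal was 5813, 6070, 6318, 6076 and 6051 in DMSO and 4715, 4307, 5069, 4995 and 5118 at 100 uM. At 48 h it was 6080, 6198, 6092, 6576 and 5904 in DMSO and 4767, 4640, 5071, 4981 and 4675 at 100 uM. Neither pair of groups overlapped, and the dosed means were nearly the same at both times, 4841 and 4827. The dimmer probe set of Papss2 was also called lower, at -0.34 ± 0.084 and -0.47 ± 0.084 (limma adjusted p = 0.00163 and 3.56e-05).

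In the glucuronidation pathway the transferase and its suppliers were called at different times or in different directions, and no test compared these genes with each other. Ugp2, which makes UDP-glucose, was slightly lower at both times. Its signal at 24 h was 57447, 53178, 53029, 46709 and 56023 in DMSO and 45418, 45464, 43658, 45229 and 47334 at 100 uM. These overlap: the highest dosed well was above the lowest control. The log2 fold change was -0.23 ± 0.075 (limma adjusted p = 0.0166), a call that ended without DMSO replicate 1 (adjusted p = 0.0537). The means of 48 h were 56502 ± 2977 and 47884 ± 2347, without overlap, and the log2 fold change -0.24 ± 0.075 (limma adjusted p = 0.0125).

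Ugdh, the UDP-glucose dehydrogenase, was the single member called higher. At 24 h its signal was 28174, 27990, 34306, 30468 and 32324 in DMSO and 34696, 37281, 33503, 34220 and 32700 at 100 uM. The ranges overlapped, with 2 dosed wells above all controls and the rest within their upper part. The log2 fold change was 0.17 ± 0.059 (limma adjusted p = 0.0217). The call ended without DMSO replicate 1 or 2 or without 100 uM replicate 2 (adjusted p = 0.0770, 0.0807 and 0.0743) and with arrays centred on their medians (0.260). At 48 h the means were 28255 ± 2446 in DMSO and 28861 ± 627 at 100 uM, and the log2 difference, 0.03 with a 95% interval of -0.09 to 0.16, was not called (limma adjusted p = 0.711).

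Ugt2b1, which conjugates steroids and drugs, was called lower at 48 h alone. At 24 h its signal was 38737, 34413, 30869, 30470 and 31914 in DMSO and 37190, 38546, 33005, 36209 and 35656 at 100 uM, which overlapped widely. The log2 difference was 0.12 with an interval of -0.10 to 0.34 (limma adjusted p = 0.412). At 48 h the signal was 33050, 28413, 31812, 37027 and 40941 in DMSO and 29122, 28666, 24195, 22635 and 23860 at 100 uM. Of the dosed wells, 3 were below every control and the rest above the lowest control. The log2 fold change was -0.41 ± 0.11 (limma adjusted p = 0.00275).

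**Figure D2:**
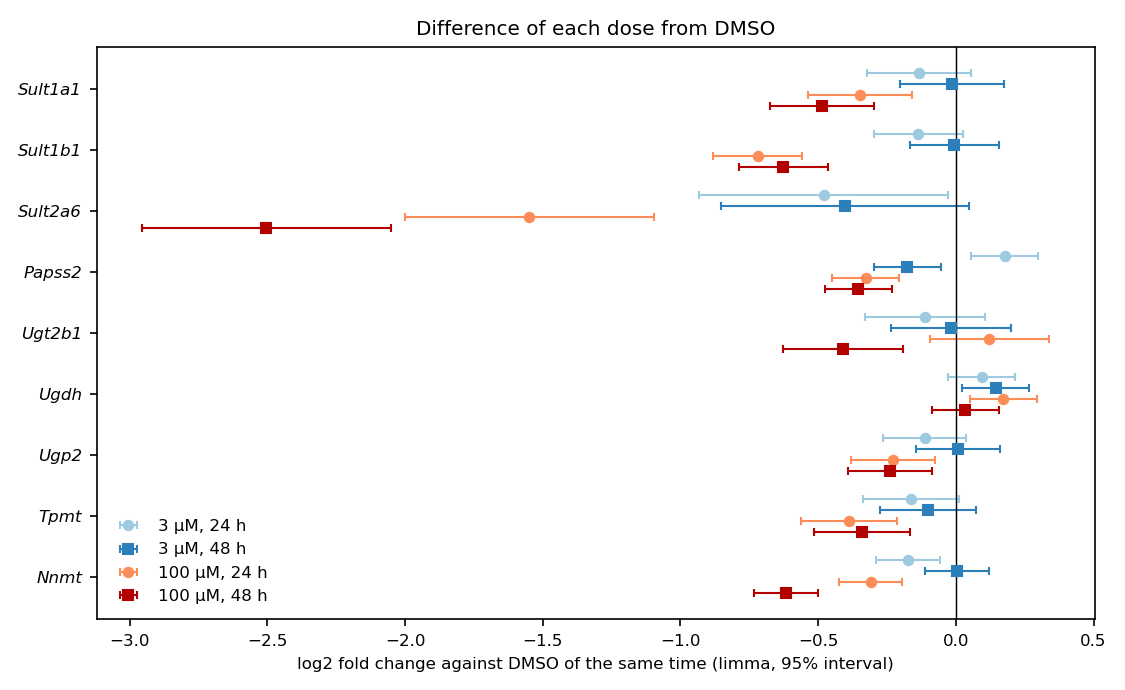
Log2 fold change against DMSO of the same time (horizontal axis) for the 9 genes, from limma with 95% intervals, at 3 uM (blue) and 100 uM (orange and red), at 24 h (circles) and 48 h (squares). Sult2a6 at 100 uM lies farthest left (-1.55 and -2.50, from dosed signals below the array median, so their size is uncertain), Ugdh lies between 0.03 and 0.17 (the lowest, at 100 uM and 48 h, was -0.01 with arrays centred on their medians), and Ugt2b1 at 100 uM changes side between 24 h (0.12, not called) and 48 h (-0.41).

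Both methyltransferases fell. Tpmt, the thiopurine S-methyltransferase, read 5685, 5725, 5578, 7287 and 6481 in DMSO and 5070, 4114, 5080, 4651 and 4516 at 100 uM at 24 h. The groups did not overlap, and the log2 fold change was -0.39 ± 0.086 (limma adjusted p = 0.000470). The means of 48 h were 6146 ± 432 and 4847 ± 249, again apart, with a log2 fold change of -0.34 ± 0.086 (limma adjusted p = 0.00197).

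Nnmt, the nicotinamide N-methyltransferase, fell at 24 h and further at 48 h. At 24 h its signal was 5923, 6330, 6713, 6301 and 6192 in DMSO and 5373, 5011, 5112, 4932 and 4955 at 100 uM. At 48 h it was 6305, 6090, 5954, 6346 and 6204 in DMSO and 3929, 4356, 4011, 3971 and 3887 at 100 uM. The groups were apart at both times, and every dosed well at 48 h was below every dosed well at 24 h. The log2 fold changes were -0.31 ± 0.057 and -0.62 ± 0.057 (limma adjusted p = 4.60e-05 and 1.13e-10).

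The 100 uM effect on Nnmt differed between the times (48 h minus 24 h, -0.31 ± 0.080 on the log2 scale), the single member for which the test of the 100 uM effect at 48 h against 24 h passed (limma adjusted p = 0.0383). Over all genes 1.05% passed as lower and 0.616% as higher. The call was close to the threshold. It ended under 18 of 34 alternatives. Among these were both stricter thresholds (adjusted p under 0.01 and 1.5-fold) and 15 single arrays of DMSO or 100 uM left out (estimates of -0.29 to -0.31). With arrays centred on their medians the limma adjusted p was 0.347. Ugt2b1 and Sult2a6 had larger differences that missed the threshold, -0.53 ± 0.15 (adjusted p = 0.0638) and -0.95 ± 0.31 (adjusted p = 0.159), the second from dosed signals below the array median. For Sult1b1 the difference was 0.09 with an interval of -0.14 to 0.32, and for Papss2 -0.03 with an interval of -0.20 to 0.15. Between the DMSO groups of 48 h and 24 h, 0 of 9 genes were called (all genes: 1.92% lower, 2.56% higher), and 0 of 9 had an unadjusted p under 0.05, against 15.7% of all genes. The estimates ran from -0.12 (Ugdh) to 0.40 (Sult2a6).

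The low dose gave no call. At 24 h the 3 uM estimates against DMSO were below 0 for 7 of 9 genes and ran from -0.48 ± 0.22 (Sult2a6, limma adjusted p = 0.198) to 0.18 ± 0.060 (Papss2, limma adjusted p = 0.0761). An unadjusted p under 0.05 was reached by 3 genes, Sult2a6, Papss2 and Nnmt, against 2252 of the 10222 genes. After adjustment, of all genes 1.22% were called lower and 2.99% higher. At 48 h the estimates ran from -0.40 (Sult2a6) to 0.14 (Ugdh), with an unadjusted p under 0.05 for Papss2 and Ugdh (2 of 9, against 5.10% of all genes). Of all genes 0.0196% were called lower and 0.0196% higher. Papss2 at 48 h read 5790, 5425, 5531, 5578 and 5002 at 3 uM, all below the 5 DMSO arrays given above. Such separation was found in 1 of the 9 members and in 78 of all 10222 genes. The Papss2 difference of -0.18 ± 0.060 was not called (limma adjusted p = 0.805).

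The 5 arrays of 3 uM at 24 h did not read alike. Ugt2b1 was 26819, 27355 and 27338 in replicates 1, 2 and 3 and 36399 and 37081 in replicates 4 and 5. Papss2 ran the other way, with 7265, 7472 and 7312 in the first 3 and 6053 and 6308 in the others, which lay in the DMSO range. Sult1a1, Sult1b1, Ugp2, Tpmt and Ugdh were also all lower in replicates 1 to 3 than in 4 and 5, and Sult2a6 and Nnmt overlapped. Replicates 1 to 3 are the arrays with the high beta-actin ratio. With the log2 of that ratio as a covariate, the 3 uM estimates at 24 h were 0.06 ± 0.064 for Papss2, -0.02 ± 0.13 for Ugt2b1, -0.07 ± 0.10 for Tpmt and -0.18 ± 0.069 for Nnmt. In that fit 0 of 9 genes were called, and of all genes 1 was called lower and 0 higher, against 125 and 306 without the covariate. With replicates 4 and 5 alone, the differences from DMSO were 0.17 for Sult1a1, 0.15 for Ugt2b1, 0.11 for Ugp2 and 0.03 for Papss2, and none of the 9 was called (all genes: 4 lower, 0 higher). Without replicate 5, by contrast, Sult1a1 (-0.24), Ugp2 (-0.21) and Nnmt (-0.17) were called lower and Papss2 (0.21) higher by limma (adjusted p = 0.0371, 0.0221, 0.0453 and 0.0208); without replicate 4 the calls were Tpmt and Nnmt lower and Papss2 higher. Over all genes 6.91% were called lower and 9.23% higher without replicate 5, and 5.53% and 8.65% without replicate 4. The dimmer Papss2 probe set was at -0.26 ± 0.084 at 3 uM and 24 h (adjusted p = 0.0615), so the 2 probe sets disagreed in sign there.

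**Figure D3:**
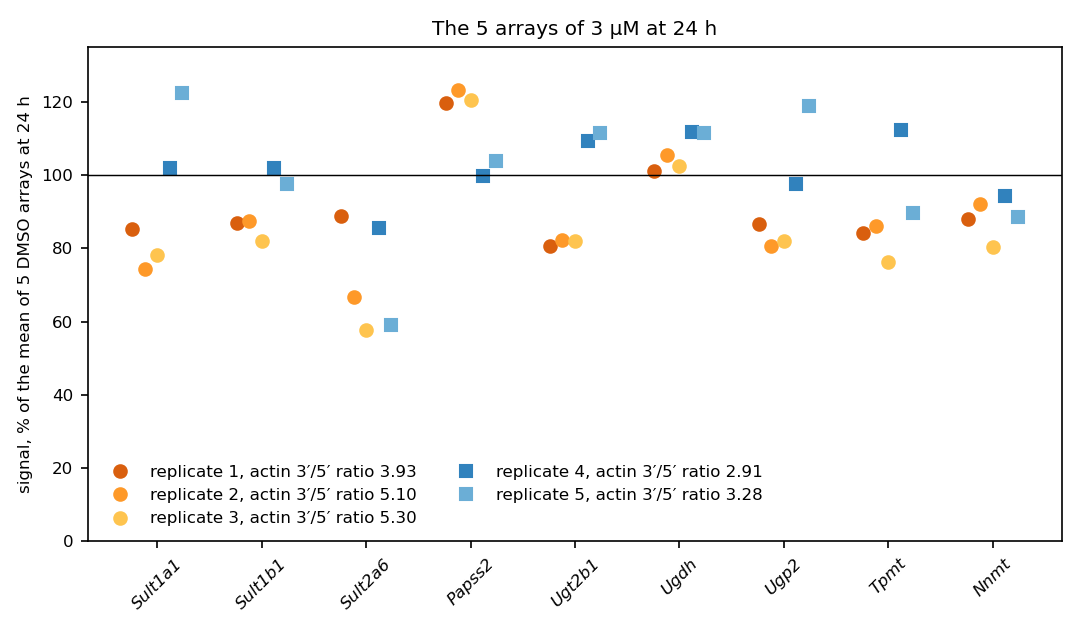
Signal of the 9 genes on the 5 arrays of 3 uM at 24 h, as a percent of the mean of the 5 DMSO arrays of 24 h (vertical axis); circles are replicates 1 to 3, squares replicates 4 and 5, and the legend gives each array's beta-actin 3′ to 5′ ratio. Ugt2b1 splits into 80.6 to 82.2% and 109 to 111%, and Papss2 into 120 to 123% and 99.8 to 104%.

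The 2 doses were also compared with each other. At 24 h 100 uM was called lower than 3 uM for Sult1b1, Sult2a6, Papss2 and Tpmt, 4 of 9, and higher for none (all genes: 19.1% lower, 19.8% higher). Their log2 differences were -0.58 ± 0.0795, -1.07 ± 0.22, -0.51 ± 0.060 and -0.23 ± 0.086. For Sult1b1, Papss2 and Tpmt the limma adjusted p was 3.67e-07, 2.58e-08 and 0.0332. Sult2a6 is included in every count of members called lower in this paragraph. It passed the filter only through DMSO and 3 uM, so its calls are no test. The Tpmt call ended without replicate 4 of 3 uM or without replicate 2, 4 or 5 of 100 uM (adjusted p = 0.156, 0.113, 0.0536 and 0.0644), and the dimmer Papss2 probe set gave -0.08 ± 0.084 (adjusted p = 0.506). With replicates 4 and 5 of 3 uM alone 6 of 9 were lower, Sult1a1 and Ugp2 being added (all genes: 12.3% lower, 14.6% higher). With the beta-actin ratio as a covariate 5 of 9 were lower, Sult1a1 being added at -0.37 ± 0.12 (limma adjusted p = 0.0182), and Papss2 was at -0.36 ± 0.069 (all genes: 11.3% lower, 12.5% higher). With all arrays and no covariate 7 of 9 reached an unadjusted p under 0.05, against 45.9% of all genes. At 48 h 8 of 9 were lower, all but Ugdh (all genes: 12.6% lower, 16.2% higher), from -0.18 ± 0.060 for Papss2 to -2.10 ± 0.22 for Sult2a6, whose dosed signals were below the array median. In that comparison the calls of Papss2 (limma adjusted p = 0.0227) and Tpmt (limma adjusted p = 0.0333) ended without replicate 1 of 3 uM (0.0678 and 0.109). They also ended without single arrays of 100 uM, replicate 2 or 5 for Papss2 and 3, 4 or 5 for Tpmt, and for Tpmt without replicate 4 of 3 uM. Ugdh was at -0.11 with an interval of -0.23 to 0.01.

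The spread within groups differed among the genes. The coefficient of variation of DMSO wells was smallest for Papss2 (2.95%) at 24 h and for Nnmt (2.60%) at 48 h. It was largest for Sult2a6 at both times (20.5% and 16.6%), and in the 100 uM group of 48 h it reached 35.9% for Sult2a6. For Ugt2b1 it was 10.3% and 14.1% in DMSO.

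Sult1b1 and Ugt2b1 lie on chromosome 14 at the 2 ends of a run of 13 protein-coding genes in the RefSeq annotation of GRCr8, most of them Ugt2 genes. Of these 13, 7 were tested, taken here by position. At 24 h 2 of the 7 fell at 100 uM, Sult1b1 and Ugt2b35 (-0.17 ± 0.063, limma adjusted p = 0.0331), against 15.8% of all genes. At 48 h 6 of 7 fell, all but Ugt2b7, against 14.5% of all genes. Both counts include the members Sult1b1 and Ugt2b1 among the genes tested. The largest was Ugt2b, from 35822 ± 2959 in DMSO to 16445 ± 2178, a log2 fold change of -1.13 ± 0.079 (limma adjusted p = 1.97e-13) against -0.19 ± 0.079 at 24 h. Its effect was larger at 48 h than at 24 h by the test of the difference (-0.94 ± 0.11, limma adjusted p = 5.88e-06), whereas the differences of Ugt2a1 (-0.62, adjusted p = 0.210) and Ugt2b35 (-0.32, adjusted p = 0.0566) were not called. Ugt2b15 was at -0.19 and -0.34, the second called. The Ugt2b genes are close relatives, and a probe set may read more than 1 of them, which was not tested. Ugdh and Ugp2 also lie on chromosome 14, outside this run.

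**Figure D4:**
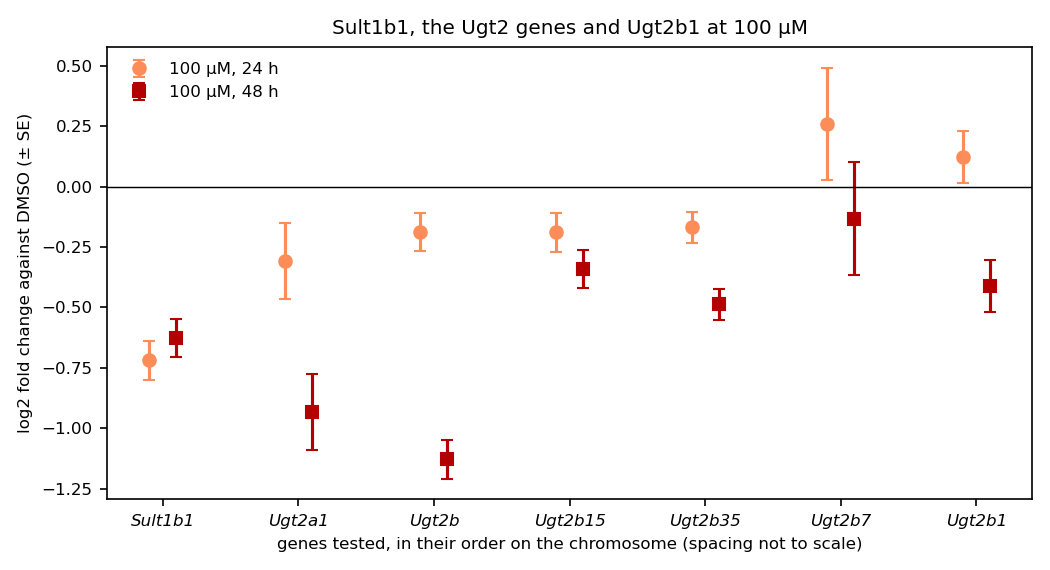
Log2 fold change of 100 uM against DMSO (± SE, limma) for the 7 tested genes from Sult1b1 to Ugt2b1, in chromosome order but not to scale, at 24 h (orange circles) and 48 h (red squares). Sult1b1 is low at both times (-0.72 and -0.63), while Ugt2b goes from -0.19 to -1.13.

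Other genes of the same pathways, from lists chosen with earlier results of these data known, are given as counts of those tested. At 100 uM 15.8% of all genes were called lower and 19.9% higher at 24 h, and 14.5% and 18.9% at 48 h. These shares hold for every list below, and a count near them is no result about the list. Of 14 further sulfation genes, 2 rose and 3 fell at 24 h and 1 rose and 5 fell at 48 h (median log2 fold change -0.12 and -0.17). Papss1, the other PAPS synthase, rose while Papss2 fell: its mean was 2560 ± 253 in DMSO and 3349 ± 118 at 100 uM at 24 h (log2 0.39 ± 0.078, limma adjusted p = 0.000126), and the change at 48 h was 0.29 ± 0.078 (limma adjusted p = 0.00312). Sult1e1, the estrogen sulfotransferase, fell at both times, at -0.82 ± 0.26 and -1.75 ± 0.26 (limma adjusted p = 0.0133 and 2.00e-06). Its mean at 100 uM and 48 h was 240 ± 180, below the array medians of 400 to 433, so the size of the second change is uncertain. Slc26a1, a sulfate transporter, and Sult1c2a fell at 48 h, at -0.56 ± 0.091 and -0.44 ± 0.13 (limma adjusted p = 8.43e-06 and 0.00638).

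Of 8 genes that carry cysteine sulfur to sulfate or beside it, 5 fell and 1 rose at 24 h, and 5 fell and 0 rose at 48 h. Cdo1, the cysteine dioxygenase that opens the route, fell to log2 fold changes of -0.95 ± 0.075 and -0.87 ± 0.075 (limma adjusted p = 3.79e-12 and 2.65e-11). Suox, the sulfite oxidase that forms sulfate, fell as well (-0.56 and -0.53 ± 0.071). Tst and Mpst, the sulfurtransferases, fell at both times (Tst -0.62 and -0.61, Mpst -0.39 and -0.41).

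Of 9 further glucuronidation genes, 4 fell and 1 rose at 24 h and 7 fell and 1 rose at 48 h (medians -0.19 and -0.42). Beside the Ugt2 genes above, Slc35d2, a nucleotide sugar transporter, fell at both times, at -0.78 ± 0.11 and -0.98 ± 0.11 (limma adjusted p = 3.87e-07 and 4.11e-09). Uxs1, which turns UDP-glucuronic acid into UDP-xylose, rose by 0.37 and 0.28. Of 9 genes around UDP-glucose and glycogen, 6 fell and 2 rose at 24 h and 4 fell and 1 rose at 48 h. Gys2, the liver glycogen synthase that uses the product of Ugp2, fell (-1.12 and -1.66 ± 0.17), as did Pygl, the glycogen phosphorylase (-0.45 and -0.16), and Uggt1, a glucosyltransferase of protein folding (-0.72 and -0.57). Gyg1, the glycogenin, rose by 0.30 and 0.22.

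Around the methyltransferases, 5 of 14 further methyl genes fell and 2 rose at 24 h, and 6 fell and 2 rose at 48 h, with medians near 0 (-0.07 and -0.08). Gamt, the guanidinoacetate methyltransferase, fell from 17997 ± 772 to 9502 ± 490 at 24 h and from 19439 ± 841 to 5448 ± 371 at 48 h, log2 fold changes of -0.92 and -1.84 ± 0.061 (limma adjusted p = 6.00e-14 and 2.08e-21). Gnmt, the glycine methyltransferase (-1.22 and -1.74), As3mt, the arsenic methyltransferase (-0.42 and -0.62), and Ahcy, which clears the product of all these reactions (-0.60 and -0.63), fell too. Of 15 genes of nicotinamide and NAD, 6 fell and 1 rose at 24 h and 5 fell and 1 rose at 48 h. Qprt and Haao of the route from tryptophan fell at 24 h (-0.94 and -1.07), as did the NAD kinase Nadk2 (-0.78) and the aldehyde oxidase Aox1 (-0.79), while Nampt, which recycles the nicotinamide that Nnmt methylates, rose by 0.31. Of 5 thiopurine genes 2 fell and 2 rose at both times: Xdh (-1.54 at 24 h) and Nt5c2 (-0.21) fell, and Hprt1 (0.23) and Gmps (0.22), which activate thiopurines, rose.

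**Figure D5:**
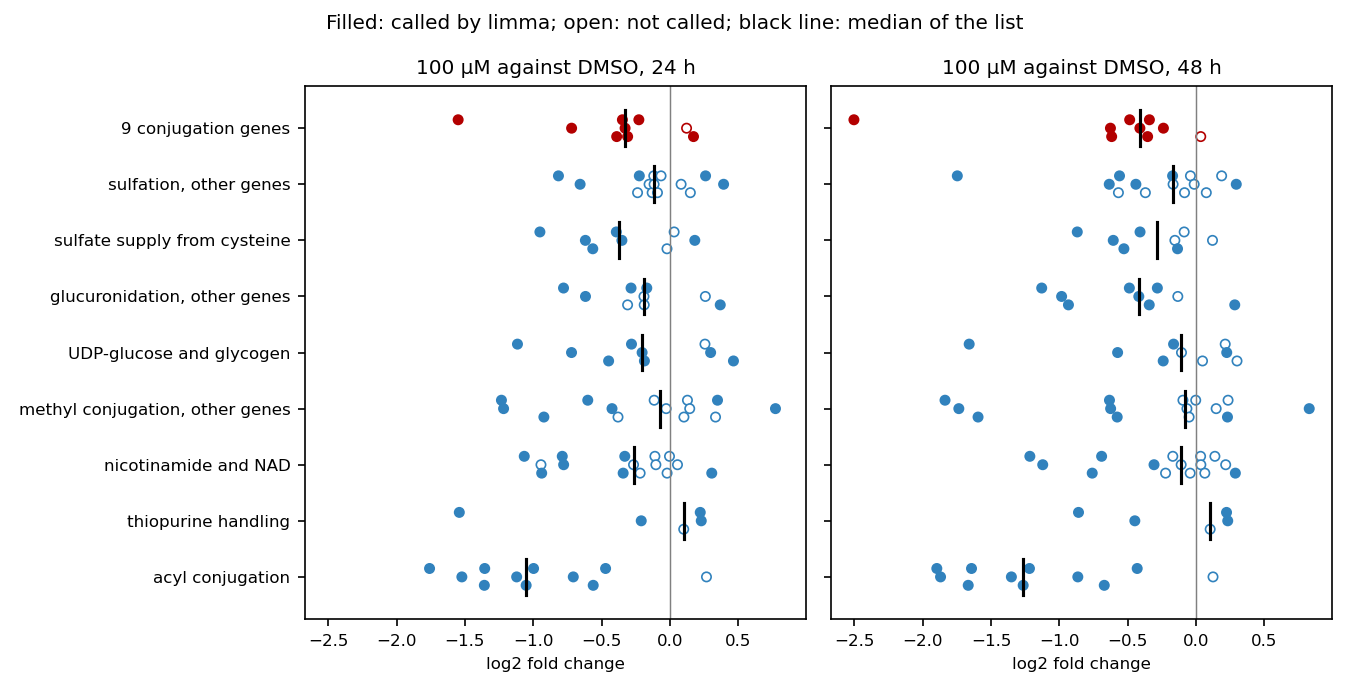
Log2 fold change of 100 uM against DMSO (horizontal axis) for each tested gene of the 9 conjugation genes (red) and of 8 related lists (blue), at 24 h (left) and 48 h (right); filled points were called by limma, open ones were not, and the black line is the median. The acyl conjugation list lies lowest, with medians of -1.05 and -1.26, and the 9 genes have medians of -0.33 and -0.41.

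A further route of conjugation, to glycine, taurine or acetyl groups, fell in 10 of 11 tested genes at both times (medians -1.05 and -1.26). Slc27a5, the bile acid-CoA ligase, was at -1.87 ± 0.095 at 48 h, and Acsm1, a CoA ligase of medium-chain acids, fell at both times (-1.05 and -1.35). Of 9 receptors and factors known to regulate conjugation genes, 5 fell and 1 rose at both times. Nr1i3 (the receptor CAR) fell the most (-2.37 and -1.96 ± 0.16), and Nr1i2 (PXR), Nr1h4 (FXR) and Nr1h3 (LXR alpha) fell at 24 h (-0.69, -0.75 and -0.73), while Nfe2l2 (NRF2) rose by 0.26 and 0.29. The mean of Nr1i3 at 100 uM and 24 h was 418 ± 107, near the array medians (385 to 425), so the size of its change is uncertain. Of 12 genes commonly used as readouts of NRF2, 6 rose and 0 fell at 24 h, and 3 rose and 4 fell at 48 h. Hmox1 rose by 0.46 and 0.24, and the transporter Abcc3, at -0.19 and not called at 24 h, fell at 48 h (-0.35).

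Markers of hepatocytes and of other liver cells were counted at 100 uM. Of 9 hepatocyte markers, 2 fell at 24 h (Cps1 at -0.36 and Fgb at -0.35), and at 48 h 1 fell (Cps1, -0.38) and 1 rose (Apoa2, 0.28). Albumin was at 0.05 and -0.15, both not called. Of 6 Kupffer cell and leukocyte markers 1 rose and 1 fell at each time: Cd68 rose by 0.86 and 1.65, and Lyz2 fell (-0.29 and -0.21). Their summed signal was 9650 to 11820 in DMSO and 9971 to 10920 at 100 uM at 24 h, and 9358 to 10160 and 9445 to 11520 at 48 h. Of 5 stellate cell markers 1, Des, rose at 48 h (0.58), the endothelial Kdr was not called, and of 2 cholangiocyte markers Epcam rose at 24 h (0.15) and both Epcam (-0.15) and Krt19 (-1.49) fell at 48 h. Krt19 was below the array median on every array of 100 uM, so the size of its change is uncertain. Krt19 passed the filter on dim probe sets only through arrays of the low dose and of DMSO at 48 h. Its call at 48 h is therefore no test of a difference. The summed signal of the stellate markers was 3357 to 3973 in DMSO and 3648 to 4384 at 100 uM at 24 h. Their part in the results was not tested.

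Genes most like each member were found as those with the smallest root mean square difference of the 6 group means (log2, each gene centred), among 10213 other genes; no test was made. Sult2a6 was nearest to the esterases Aadac and Ces1d, at 0.11 and 0.14, of which Aadac was at -1.48 and -2.25 at 100 uM. Sult1b1 was nearest to Ndrg2 and Srsf4 (0.037 and 0.038), Sult1a1 to Chpt1 and Cfi (0.022 and 0.025), and Papss2 to Tsc22d3 and Phf14 (0.030 and 0.034). Ugt2b1 was nearest to Slc6a8 and Lce3b (0.047 and 0.051), Ugdh to Akap8 and Adnp2 (0.026 and 0.028), and Ugp2 to Sdhd and Pex11a (0.015 and 0.028). Tpmt was nearest to Shmt2 and Cbr4 (0.024 and 0.026) and Nnmt to Lgals9 and Nucb2 (0.027 and 0.041). Among the members themselves the closest pairs were Sult1a1 with Nnmt (0.066) and with Tpmt (0.070), and Sult2a6 was at least 0.62 from every other.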

How the data were processed

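RNA of 30 wells in 6 groups of 5 was measured, 1 array a well, on rat expression arrays. Per the submitters' processing notes the authors computed the deposited intensity with MAS5, a linear signal per probe set; which version, and its detection calls, are not given in the sources used here. The 2% trimmed mean was 1501 on every array, so arrays had been scaled. The number of arrays limits the precision.

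Signals were log2 transformed. A probe set annotated to 1 gene stayed in if it was brighter than the array median on 5 or more arrays, and each gene took its probe set with the highest mean (10222 genes). All 30 arrays entered 1 model of group means in limma 3.58.1 in R 4.3.3 (eBayes with trend, 24 residual degrees of freedom, two-sided), with Benjamini-Hochberg adjustment over all genes within each comparison. Figures were drawn with matplotlib 3.10.9. The fit was tested on simulated data.

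The members and gene lists were chosen with earlier results of these data known. Named are all members, up to 4 called genes of each list by adjusted p at 100 uM, the 2 genes nearest to each member, and, chosen after their values were seen, single genes of a small count. Replicates are numbered in order of deposit and do not pair wells. Alternatives changed the scaling, filter, pseudocount (16), probe sets, variance model, thresholds (0.01 and 1.5-fold), the log2 beta-actin ratio as a covariate, the groups and arrays in the fit and each array in turn.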

Additional observations from a re-analysis of the deposited data

Results flagged for a closer look

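Of the 54 sets of 5 arrays (9 genes in 6 groups), 1 held an array far from the others by Dixon's test, which chance gives in about 1 set in 20: Nnmt at 100 uM and 48 h was 4356.46 in replicate 2 and 3887 to 4011 in the other arrays. The change of Nnmt at 100 uM differed between the times, by -0.31 on the log2 scale (limma adjusted p = 0.0383), with the limits given above.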

How the results depend on the processing

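Of 72 pairs of gene and comparison, 29 were called and 9 of these held under every alternative run for that pair. Each pair had 24 to 34 of the 45 alternatives, 30 of which leave out 1 array each. Of the called pairs 0 reversed, and 12 of 43 uncalled pairs were called under at least 1. The 29 and the 9 include Sult2a6 at 100 uM against DMSO and against 3 uM, at both times. So does every count below of members called lower at 100 uM against DMSO or 3 uM. Sult2a6 passed the filter only through DMSO and 3 uM, so its calls are no test. At 3 uM and 24 h (0 lower, 0 higher) quantile normalization gave 1 lower and 1 higher (all genes: 206 and 325). Array weights gave 5 and 1 (all genes: 1291 and 1600). Leaving out 1 array gave 0 to 3 lower and 0 to 1 higher (all genes: 10 to 706 and 32 to 944). At 100 uM and 24 h (7 lower, 1 higher) a fold of at least 1.5 left 2 and 0. Median centring and an adjusted p under 0.01 left 0 higher, and leaving out 1 array gave 0 to 1 higher. Of all genes 1618 were called lower and 2030 higher there, and at the fewest under any alternative 574 and 397. Median centring gave 1448 higher, and leaving out 1 array 1813 to 1932. At 48 h (8 lower) the fold left 3 (all genes called lower: 1482, and 511 at the fewest under any alternative). For 100 uM against 3 uM at 24 h (4 lower, 0 higher) the fold left 1 lower, which was Sult2a6. All genes called lower were 1951 there, and 637 at the fewest under any alternative. Array weights gave 1 member higher, as did leaving out 1 array at most (0 to 1). Of all genes 2394 were called higher under array weights, and 1791 to 2113 with 1 array left out. At 48 h (8 lower) an adjusted p under 0.01 left 5 and the fold 3 (all genes called lower: 1289, and 414 at the fewest under any alternative). For the effect at 48 h against 24 h (1 lower) quantile normalization, a filter at a higher level, array weights and a fit to the groups compared gave 2 each, median centring, an adjusted p under 0.01 and the fold 0, and leaving out 1 array 0 to 1. Of all genes 123 were called lower there under quantile normalization, 162 under array weights and 37 under median centring. Over all genes the calls at 3 uM and 24 h were 125 lower and 306 higher, and ranged from 0 to 1291 and 0 to 1600. Median centring moved the share of calls that were higher from 71.0% to 90.7% there, from 56.6% to 44.7% at 100 uM and 48 h, and from 50.9% to 34.5% for 100 uM against 3 uM at 24 h. With the beta-actin ratio as a covariate the all-gene calls at 3 uM and 24 h were 1 and 0, and for 100 uM against 3 uM at 24 h 1157 lower and 1280 higher, from 1951 and 2022. Runs of 6 array numbers as a replicate block changed no count of member calls (7 and 1 at 24 h, 8 and 0 at 48 h). Dim probe sets such as Sult2a6 at 100 uM limit the precision, and no detection calls were used.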
